A study of Mus musculus with 18 samples.

Results

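The cathepsins, the subunits of the lysosomal proton pump (the V-ATPase), its 2 accessory proteins and the lysosomal membrane proteins Lamp1 and Lamp2 were followed through the first 72 h of a myocardial infarction in mice. Members were chosen by symbol: every gene of the count table named as a cathepsin (Cts and 1 letter), an Atp6v0 or Atp6v1 subunit, Atp6ap1, Atp6ap2, or Lamp1 to Lamp3, with a mean of at least 5 counts over the 18 libraries. The names matched 41 of the 30583 genes in the table and 36 passed the minimum, all 36 of which also passed the filter on low counts that left 16311 genes for testing. They comprise 10 cysteine cathepsins, 3 aspartic or serine cathepsins, 9 subunits of the V1 sector, 10 genes of the V0 sector including the pseudogene Atp6v0c-ps2, 2 accessory proteins and 2 LAMPs. The 5 left out had means of 0.111 (Atp6v1b1), 0.222 (Ctsg), 0.278 (Atp6v1e2), 0.667 (Atp6v1c2) and 2.39 counts (Lamp3). Just inside the minimum were Atp6v0a4 with 6.89, Ctse with 9.39 and Ctsw with 12.2 counts.

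RNA came from 18 male mice, labelled C57BL/6JR and aged 12 weeks, in 6 groups of 3. In 5 groups the left anterior descending coronary artery was tied and the mice were killed 10 min or 1, 6, 24 or 72 h later. Sham mice (labelled 0 h) had the suture passed but not tied. No sham group is labelled with a later time, so in comparisons with sham the ligation and the time since surgery cannot be told apart. The study's description gives sodium pentobarbital (50 mg/kg) and isoflurane for the mice. The sample labels give a dose for the ligated mice only, from 50 to 51 mg/kg at 10 min to 61 to 63 mg/kg at 72 h. It rises almost sample by sample in their listed order, within groups as well as between them, and differs from the description. Whether these doses are real is not known. A difference in dose, if real, and the time after ligation cannot be told apart. The labels give the infarcted region of the left ventricle as the source and cardiomyocytes as the cell type, but no step that isolates cells; each library is taken here as whole tissue of 1 mouse.

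Lysosomes break down material taken up by endocytosis, phagocytosis and autophagy. The V-ATPase acidifies them: its V1 sector, outside the membrane, hydrolyses ATP in the A and B subunits, and its V0 sector, in the membrane, carries protons through the ring of c subunits beside subunit a. Cathepsins are proteases that mature and work in this acidic lumen, most of them cysteine proteases, and Lamp1 and Lamp2 are abundant glycoproteins of the lysosomal membrane. Macrophages that clear dead tissue are rich in lysosomes, and osteoclasts use particular pump subunits and cathepsin K to resorb bone. The transcription factors TFEB, TFE3 and MITF bind the letters CACGTG in many promoters of lysosomal genes.

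Those letters can be read in the promoters of several members. The promoter table, from RefSeq on build GRCm38.p6, gives 250 bases before and 50 after each gene start, and matched 25 of the 36 members with 29 promoters. It held no entry for Ctsb, Ctse, Ctsh, Ctsw, Atp6v1b2, Atp6v1c1, Atp6v1g1, Atp6v1h, Atp6v0a2, Atp6v0d2 and Atp6v0c-ps2. CACGTG, which reads the same on both strands, was present in 9 of the 29 promoters (31.0%), against 7.15% of the 32851 promoters of the table. The longer TCACGTG, searched on both strands and overlapping the first, was present in 7 (24.1%) against 3.77%. The other lysosomal hydrolases, from a separate list, had CACGTG in 22.6% of 31 promoters. One 30-base window from each of the 9 genes is shown, on the strand of the gene, because these are the members with the letters; the motif and the T before or A after it, where present, are in capitals.
Atp6v1a, chr16:44139373-44139402, minus strand: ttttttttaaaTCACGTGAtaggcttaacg
Ctsd, chr7:142387908-142387937, minus strand: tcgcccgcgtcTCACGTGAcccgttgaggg
Ctsa, chr2:164833749-164833778, plus strand: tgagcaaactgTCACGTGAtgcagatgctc
Atp6v0e, chr17:26676387-26676416, plus strand: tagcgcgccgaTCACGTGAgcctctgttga
Atp6v0d1, chr8:105566050-105566079, minus strand: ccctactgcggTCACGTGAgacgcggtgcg
Atp6v0b, chr4:117887348-117887377, minus strand: gtgcgcgggggTCACGTGgggtcggcgcat
Lamp1, chr8:13159088-13159117, plus strand: agggcaagataTCACGTGgtccagcgccca
Ctsl, chr13:64370739-64370768, minus strand: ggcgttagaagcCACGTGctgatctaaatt
Ctsf, chr19:4855074-4855103, plus strand: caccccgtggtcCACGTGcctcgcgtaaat
A match describes the letters of the window and is not a site of binding. Of these 9 genes, 8 were higher and 1, Ctsf, was lower at 72 h than in sham, with a median log2 fold change of 1.13. The 16 matched members without the letters had a median of 0.56 (10 higher, 3 lower), and ran from -1.82 to 5.49, so the gene with the largest rise among matched members, Ctss, had no CACGTG in its window. The 11 members with no promoter entry had a median of 0.94 (9 higher, 0 lower). Whether they carry the letters is not known, and a link between the letters and the change was not tested.

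Libraries held 18.2 to 25.1 M counts. Levels are TMM-scaled CPM, counts per M counts after TMM (the trimmed mean of M-values, which scales libraries so that most genes are level); TMM factors ran from 0.825 to 1.43. A gene is said to have risen or fallen, or is called, when its adjusted p was under 0.05 in edgeR's quasi-likelihood test (Benjamini-Hochberg over the 16311 genes); log2 changes (log2 fold changes of the later over the earlier group, or of ligated over sham) come from that fit with their standard error (SE). Marker genes of several cell types moved over the same hours. The summed level of 13 macrophage and monocyte markers was 371 to 425 CPM in sham, 385 to 635 at 6 h, 790 to 1120 at 24 h and 4430 to 5740 at 72 h, where 13 of 13 had risen and none was at 0. The 12 cardiomyocyte markers summed to 87200 to 93300 CPM in sham, 39800 to 60600 at 24 h and 21900 to 29400 at 72 h, where 12 of 12 had fallen. The 10 fibroblast and myofibroblast markers summed to 952 to 1110 CPM in sham and 14000 to 18300 at 72 h (10 of 10 higher). The 14 neutrophil markers, of which up to 8 were at 0 in a sham library, summed to 5.37 to 7.78 CPM in sham, 277 to 953 at 6 h, 110 to 999 at 24 h and 74.9 to 89.4 at 72 h. In such bulk tissue, more cells of a type and more RNA per cell cannot be told apart. The part of these markers in the results that follow was not tested.

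None of the 36 members was called at 10 min or at 1 h, few were at 6 h, and most were by 72 h. At each of these first times 3 members had an unadjusted p under 0.05. Of all genes, edgeR called 12 at 10 min (0.0736%) and 48 at 1 h (0.294%), and DESeq2 called 0 members at both times. At 6 h 8 members were called (22.2%), 7 higher and 1 lower, against 28.4% of all genes (16.3% higher, 12.2% lower), so the share of members was not above the background. At 24 h 18 were called (50%), 13 higher and 5 lower, against 43.8% (23.7% higher, 20.2% lower). At 72 h 31 were called (86.1%), 27 higher and 4 lower, against 66.4% of all genes in either direction, 34.2% higher and 32.2% lower. Of the members, 16 were at least 2-fold higher at 72 h, against 19.6% of all genes. The median log2 change of the 36 was 0.11 at 6 h, 0.17 at 24 h and 0.91 at 72 h, beside -0.01, 0.01 and 0.03 over all genes. Scaling to the library total instead of TMM moved the median of all genes at 72 h to 0.61 and the members' calls to 33 higher and 2 lower. At 24 h the same scaling moved the all-gene median to 0.20 and the members' calls to 25 higher and 2 lower. Of the calls over all genes under that scaling, 79.9% were higher at 72 h and 75.5% at 24 h.

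**Figure D1:**
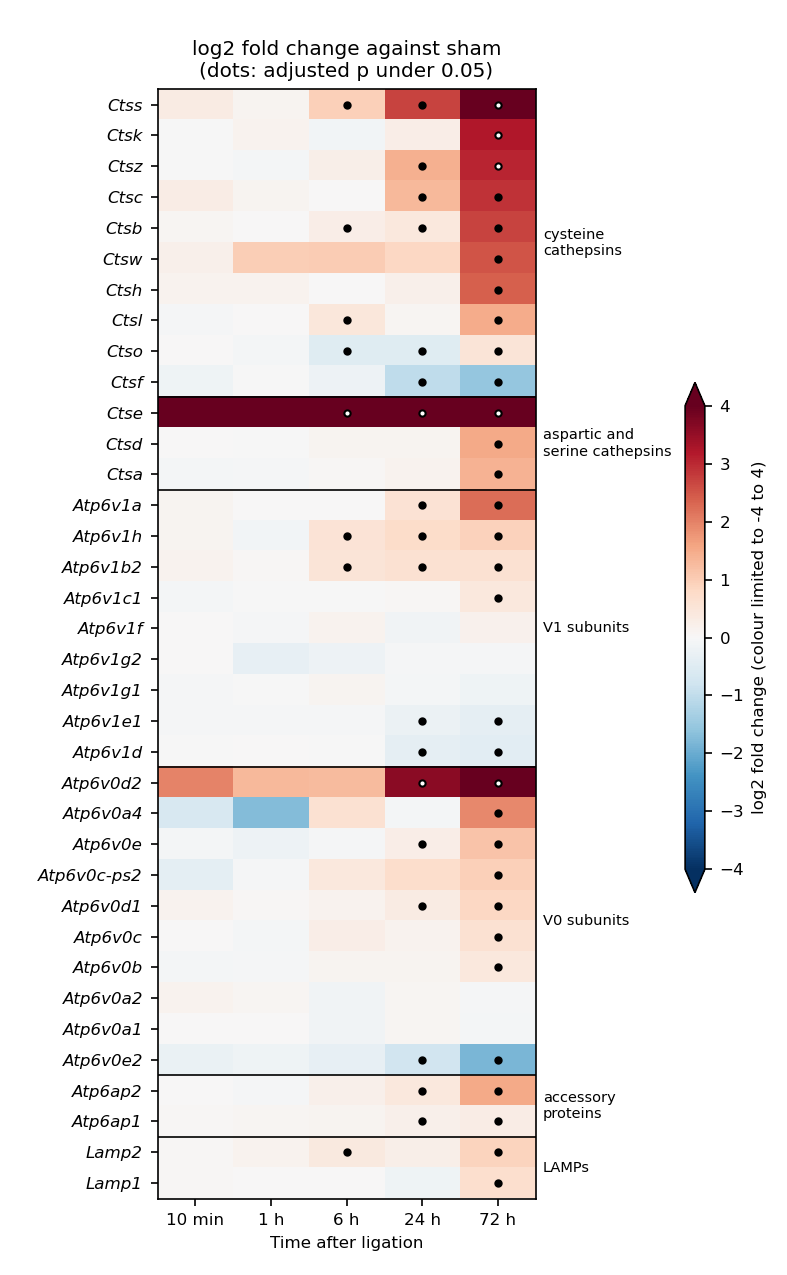
Log2 fold change against sham of the 36 members (rows, grouped by class) at the 5 times after ligation (columns), on a colour scale limited to -4 to 4, from blue (lower) to red (higher); a dot marks an adjusted p under 0.05 in edgeR's quasi-likelihood test. No dot appears at 10 min or 1 h and 31 appear at 72 h; the colours of Ctse, which had 0 counts in sham, are fitted values and no measured fold.

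The last interval held most of the change. From 24 to 72 h, 27 members were called, 24 higher and 3 lower (75%, against 50.5% of all genes, 24.4% higher and 26.1% lower), with a median log2 change of 0.76 beside -0.03 over all genes. From 1 to 6 h 8 were called, 7 higher and 1 lower (22.2% against 24.5% of all genes, 14.5% higher and 10% lower), and from 6 to 24 h 12 were called, 8 higher and 4 lower (33.3% against 27.8%, 14.2% higher and 13.7% lower). With scaling to library totals the count from 6 to 24 h was 19 higher and 1 lower, and 88% of all calls were higher. Comparisons with sham share the 3 sham libraries and consecutive steps share the group between them. The time of largest change against sham was 72 h for 33 of the 36. Of the 5 members not called at 72 h, all belong to the pump: Atp6v1f, Atp6v1g1, Atp6v1g2, Atp6v0a1 and Atp6v0a2. With scaling to library totals all 5 were called higher (log2 changes of 0.77, 0.43, 0.55, 0.50 and 0.52). Over all genes the median under that scaling was 0.61, and Atp6v1d was the member not called.

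All 10 cysteine cathepsins were called at 72 h, against 66.4% of all genes. Of the 10, 9 were higher and Ctsf was lower, with a median log2 change of 2.61. Their summed level was 824 ± 26.5 CPM in sham (SD, n = 3), 978 ± 29.5 at 6 h and 1170 ± 96.4 at 24 h, and reached 4950 ± 376 by 72 h, beside the rise of macrophage markers in the same libraries. The class did not move as one: Ctss, Ctsz and Ctsc had risen by 24 h, Ctsk and Ctsh were first called against sham at 72 h, and Ctsl was called at 6 h and at 72 h but not at 24 h.

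Ctss, cathepsin S, works in antigen-presenting cells, where it trims the invariant chain of MHC class II, and stays active at neutral pH. Its gene lies at chr3:95526786-95556403 (plus strand; coordinates are those of GENCODE M21 on GRCm38). It stood at 12, 12.2 and 14.2 CPM in the 3 sham libraries, and at 11.4 to 16.8 in the 6 libraries of 10 min and 1 h. At 6 h it was at 30.9, 25.3 and 17.5 CPM, at 24 h at 73.2, 67.3 and 108, and at 72 h at 541, 530 and 663. The groups from 6 h on do not overlap sham or one another. The log2 change was 0.94 (SE 0.20, edgeR adjusted p = 0.00227) at 6 h, 2.69 (adjusted p = 1.91e-07) at 24 h and 5.49 (SE 0.22, adjusted p = 5.94e-12) at 72 h, a 45.1-fold rise.

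Ctsk, cathepsin K, is the collagenase of osteoclasts. Its gene (chr3:95499256-95509362, plus strand) lies beside that of Ctss, on the same strand. Ctsk read 5.31, 5.03 and 5.55 CPM in sham and still 6.17, 6.40 and 6.55 at 24 h, a difference that was not called (log2 change 0.27, edgeR adjusted p = 0.111). At 72 h it read 44.4, 51.6 and 51.4 CPM. The rise over sham was 9.26-fold (log2 3.21, SE 0.13, adjusted p = 2.55e-12) and over 24 h 7.70-fold, so nearly all of it fell in the last interval.

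Ctsz, cathepsin X, a carboxypeptidase with an integrin-binding motif in its propeptide, read 49.4, 47.3 and 52.2 CPM in sham. It read 104, 120 and 176 at 24 h and 403, 407 and 436 at 72 h, with no overlap between these groups. The log2 change was 1.42 at 24 h (edgeR adjusted p = 1.26e-06) and 3.06 (SE 0.15, adjusted p = 1.22e-11, 8.36-fold) at 72 h. Ctsc, the dipeptidyl peptidase that activates the serine proteases of neutrophil and mast cell granules, rose 2.46-fold at 24 h and 7.38-fold at 72 h. In Ctss, Ctsz, Ctsc and Atp6v1a, replicate 3 was the highest of the 3 libraries at 24 h. That library was also the highest in macrophage markers (1120 against 790 and 827 CPM) and the lowest in cardiomyocyte markers (39800 against 60600 and 56600). It stood further apart in neutrophil markers (999 against 301 and 110 CPM) and osteoclast markers (152 against 60.6 and 46.6). Without that library the log2 changes at 24 h were 2.45, 1.18, 1.10 and 0.49 in that order of genes, and all 4 remained called.

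Ctsb and Ctsl are given per library after their values were seen, since Ctsb carried most of the cysteine cathepsin reads and Ctsl took a course of its own. Ctsb, cathepsin B, which cuts as both an endopeptidase and a dipeptidyl carboxypeptidase, read 467, 438 and 457 CPM in sham, 616, 606 and 615 at 24 h and 2790, 2840 and 3240 at 72 h. Its rise at 72 h was 6.51-fold (log2 2.70, SE 0.09, edgeR adjusted p = 3.27e-13). At 6 h it was 1.20-fold (adjusted p = 0.0357), a call lost in 10 of 27 alternative analyses, among them leaving out any 1 sham library. Ctsl, cathepsin L, a strong endopeptidase, read 160, 154 and 155 CPM in sham and 224, 186 and 233 at 6 h, all above sham (log2 change 0.46, adjusted p = 0.0021). By 24 h it read 170, 144 and 181, overlapping sham and below 6 h (log2 change from 6 to 24 h -0.38, adjusted p = 0.00778), and by 72 h 424, 440 and 456. The difference from 6 to 24 h was lost in 4 of 27 alternatives, among them scaling to library totals (-0.08, adjusted p = 0.561). Ctsh, an aminopeptidase, rose 5.20-fold at 72 h and was not called at 24 h. Ctsw, the cathepsin of natural killer and cytotoxic T cells, was rare, with 13 counts in the 3 sham libraries together and 119 at 72 h, a ratio per scaled count of 5.87 (95% interval 3.31 to 11.4, counting error only). The 5 T and natural killer cell markers with enough counts to test had all risen at 72 h, where the 11 in the table summed to 7.76 to 12 CPM.

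**Figure D2:**
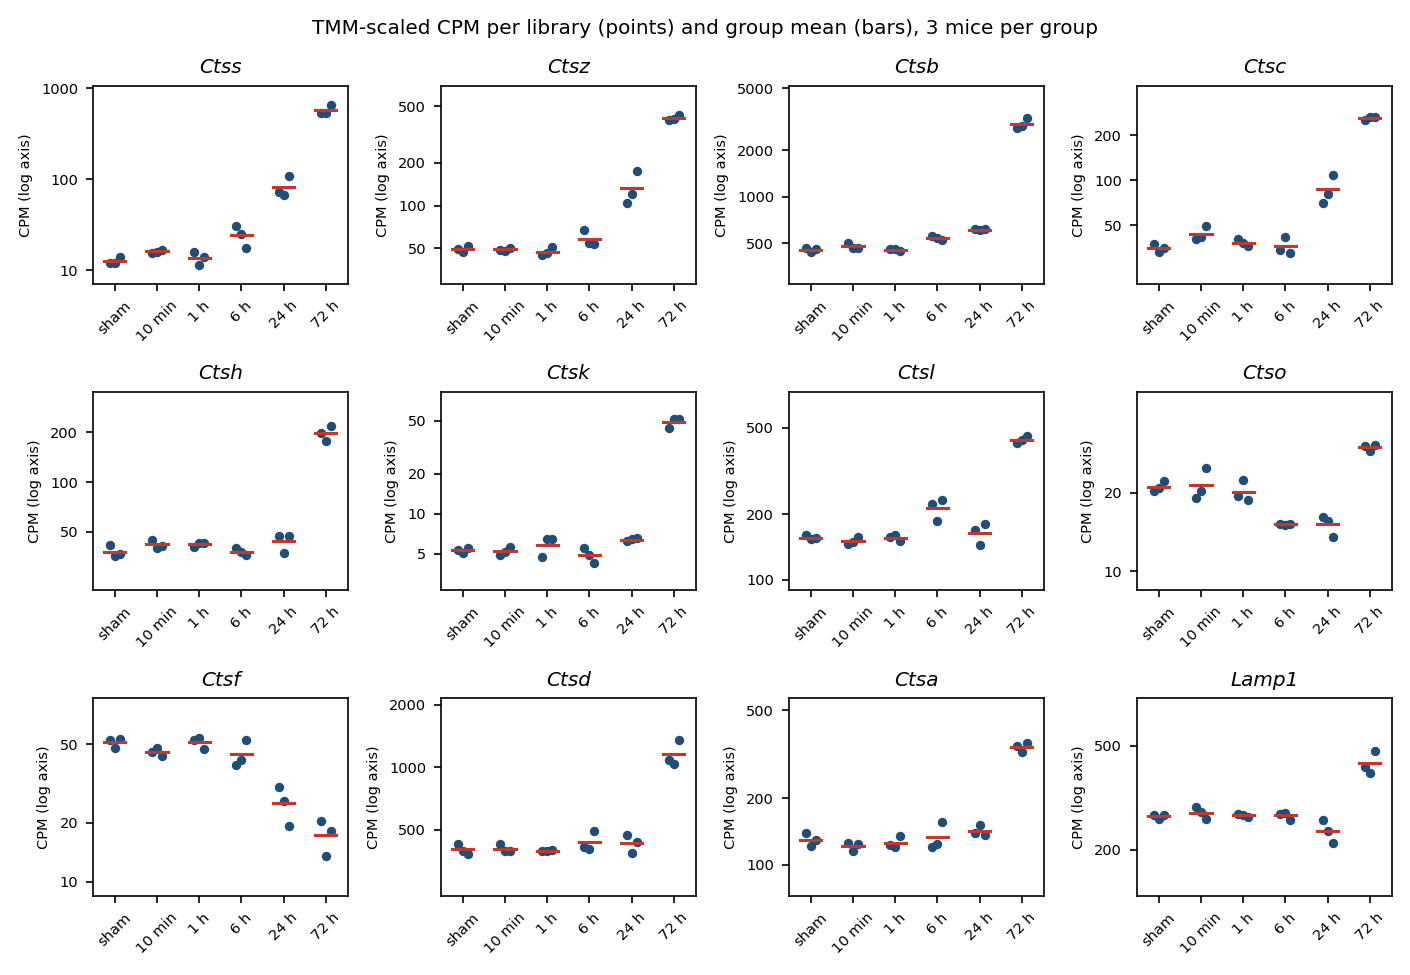
TMM-scaled CPM, on log axes that differ between panels, of 11 cathepsins and Lamp1 in each of the 18 libraries, by group in order of time; points are libraries and bars are group means. Ctss separates from sham at 6 h and Ctsk only at 72 h, Ctsf falls, and Ctso lies below sham at 6 and 24 h and above it at 72 h.

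Ctsf ran against the class at 24 and 72 h, and Ctso did so at 6 and 24 h only. Ctsf, cathepsin F, read 52.7, 48.1 and 53.2 CPM in sham, 30.3, 25.8 and 19.2 at 24 h and 20.5, 13.6 and 18.1 at 72 h. Each library at 24 and 72 h lies below every sham library. The log2 change was -1.03 at 24 h (SE 0.15, edgeR adjusted p = 6.21e-05) and -1.56 at 72 h (SE 0.16, adjusted p = 8.2e-08). Its fall ran beside that of the cardiomyocyte markers, whose median log2 change was -0.75 at 24 h and -1.95 at 72 h. Ctso, cathepsin O, a little-studied member whose gene is at chr3:81932601-81956725 (plus strand), was the only 1 of the 36 called lower at some times and higher at another, which 5.16% of all genes were. It read 20.3, 20.8 and 22.2 CPM in sham, 15.2, 15 and 15.2 at 6 h, 16.2, 15.6 and 13.6 at 24 h and 30.3, 28.9 and 30.4 at 72 h, with every 6 and 24 h library below sham and every 72 h library above. The log2 change was -0.48 at 6 h (adjusted p = 0.00274), -0.48 at 24 h (adjusted p = 0.00153) and 0.50 at 72 h (adjusted p = 0.000335). With scaling to the library total the 24 h value was -0.28 and no longer called.

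All 3 aspartic and serine cathepsins rose at 72 h, Ctsd and Ctsa mainly in the last interval, while Ctse was already called at 6 h and 24 h. Ctsd, cathepsin D, the main aspartic protease of lysosomes, read 429, 395 and 385 CPM in sham, 472, 388 and 436 at 24 h, overlapping sham, and 1090, 1040 and 1350 at 72 h (2.88-fold, log2 1.52, SE 0.12, edgeR adjusted p = 2.79e-09). Ctsa, a serine carboxypeptidase that also protects beta-galactosidase and neuraminidase in a complex, read 140, 122 and 129 CPM in sham, 139, 152 and 136 at 24 h and 346, 324 and 355 at 72 h (2.63-fold, log2 1.39, adjusted p = 1.61e-09). Its exons overlap those of Pltp and Neurl2 on the other strand over 10.5% and 6.9% of their length. The use of strand in counting is not given in the sources used here, so some reads may belong to those genes. The same holds for Ctsb and Fdft1 (12.8%) and Lamp1 and Grtp1 (9.3%). Larger overlaps were those of Ctsd with Gm49369 on the same strand (34.4%) and of Ctsl with Gm47123 on the other strand (26.8%). Neither neighbour is in the count table, so how their reads were counted is not known. Ctse, cathepsin E, an endosomal aspartic protease of immune cells and gastric epithelium, had 0 counts in the 3 sham libraries and 102 in those of 72 h. It already had 10 counts at 10 min and 9 at 1 h, without being called. With 3 counts assumed over the sham group, it was 3.55-fold higher at 10 min and 3.37-fold at 1 h. On the same assumption it was 9.09-fold higher at 6 h, 6.66-fold at 24 h and 21.8-fold at 72 h. The lower 95% bounds of the ratio to sham, for counting error only, were 2.39, 2.22, 6.86, 5 and 17.4 over these times in order. Neither the step from 1 to 6 h nor that from 6 to 24 h was called. The 25 counts of 6 h came mostly from replicate 1 (0.954 CPM, against 0.191 and 0.266).

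The 13 cathepsins together went from 1360 ± 50.3 CPM in sham to 6450 ± 549 at 72 h, or from 0.126% to 0.897% of each library's counts without TMM. Transcripts of the mitochondrial genome held 23.8% to 26.1% of counts in sham libraries and 8.41% to 10.5% at 72 h. Library totals include them, so their smaller share raises the share of other genes on that scale. The make-up of the cathepsins changed as well. Compared per length (FPKM with TMM scaling, in which genes of different length can be set beside each other), Ctsd made up 43.9% of cathepsin expression in sham and 24.9% at 72 h. Ctsb went from 19.2% to 24.8%, Ctsz from 8.83% to 14.7% and Ctss from 2.42% to 21.5%, moving it from the seventh to the third place. Ctsf went from 6.66% to 0.448%. In CPM, the 3 aspartic and serine cathepsins went from 533 ± 30.9 to 1500 ± 174, a smaller gain than that of the 10 cysteine cathepsins.

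The V1 sector, the ATP-hydrolysing part of the pump, moved less and in both directions. Of its 9 genes, 6 were called at 72 h (66.7%, against 66.4% of all genes), 4 higher and 2 lower. That share is at the background, in which 34.2% of all genes were higher and 32.2% lower. The median log2 change was 0.18, and the summed level went from 557 ± 5.69 CPM in sham to 681 ± 24.3. With scaling to library totals 8 of the 9 were called higher and none lower. Under that scaling 79.9% of all calls were higher and the median of all genes was 0.61, so the shares of 34.2% and 32.2% are not its background. Atp6v1a, the catalytic A subunit (chr16:44085402-44139705, minus strand), stood apart from the rest of V1. It read 27.5, 26.7 and 28.3 CPM in sham, 30.3, 32 and 21.5 at 6 h, 37.4, 39.4 and 47.2 at 24 h and 114, 138 and 132 at 72 h. The 24 and 72 h libraries lie above all sham libraries. Its log2 change was 0.59 at 24 h (edgeR adjusted p = 0.00159) and 2.22 at 72 h (95% interval 1.94 to 2.50, adjusted p = 1.77e-10), or 4.65-fold.

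Atp6v1b2, the B subunit that forms the catalytic hexamer with A, was called from 6 h on, and on the TMM scale stood no higher at 72 h than at 24 h. It read 79.9, 77.6 and 83.7 CPM in sham, 131, 116 and 100 at 6 h, 130, 105 and 133 at 24 h and 119, 125 and 125 at 72 h. Its log2 change was 0.52 (edgeR adjusted p = 0.00187), 0.61 and 0.61 (95% interval 0.38 to 0.84), and from 24 to 72 h it was 0.00. That level course rests on TMM: with scaling to library totals the change from 24 to 72 h was 0.40 (adjusted p = 0.0032). The intervals of A and B at 72 h do not overlap, though both subunits are held in equal number in the assembled enzyme. The per-length ratio of Atp6v1a to Atp6v1b2 was 0.300 ± 0.00333 in sham, 0.211 ± 0.0281 at 6 h, 0.298 ± 0.041 at 24 h and 0.911 ± 0.0613 at 72 h (SD, n = 3), given with no test. Atp6v1h, the regulatory H subunit, followed the early course of B: 20.4, 20.5 and 20.7 CPM in sham, 32.7, 28.3 and 28.5 at 6 h, 31, 33.5 and 38.8 at 24 h and 34.5, 43.5 and 39 at 72 h. It was above sham in all 9 of those libraries, with log2 changes of 0.54, 0.74 and 0.93.

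Of the 6 genes of the stalk subunits, which join the hexamer to the membrane sector, 2 fell, 1 rose and 3 were not called at 72 h. With scaling to library totals, where 79.9% of all calls were higher, 5 were called higher. Atp6v1d, of the central stalk, read 117, 116 and 115 CPM in sham, 103, 87.9 and 78.8 at 24 h and 86.5, 88.6 and 86.1 at 72 h, a log2 change of -0.42 at 72 h (edgeR adjusted p = 0.000428) that became 0.17 and was not called when libraries were scaled to their totals. Atp6v1e1, of the peripheral stalks, read 86.2, 90.5 and 85.9 CPM in sham and 67.9, 65.9 and 70.7 at 72 h, a log2 change of -0.36 (adjusted p = 0.000806) that became 0.23 and was called higher under that scaling (adjusted p = 0.0293). The direction of both therefore rests on TMM, while all 3 libraries of 72 h lie below sham on that scale. Atp6v1c1, whose subunit links the stalks, rose by 0.41 on the log2 scale at 72 h. The central-stalk gene Atp6v1f (log2 change 0.18, adjusted p = 0.0736) and the peripheral-stalk genes Atp6v1g1 (-0.16, adjusted p = 0.079) and Atp6v1g2 (-0.04, adjusted p = 0.876) were not called at 72 h, but all 3 were called higher with scaling to library totals. Atp6v1g1 read 110, 113 and 108 CPM in sham and 94.1, 96.5 and 106 at 72 h. Atp6v1g2, the form known from neurons, read 4.30, 3.42 and 3.86 CPM in sham and 4.42, 2.37 and 4.49 at 72 h. It made up 1.56% ± 0.198 of the G subunit per length in sham and 1.68% ± 0.516 at 72 h, within the spread of the libraries.

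**Figure D3:**
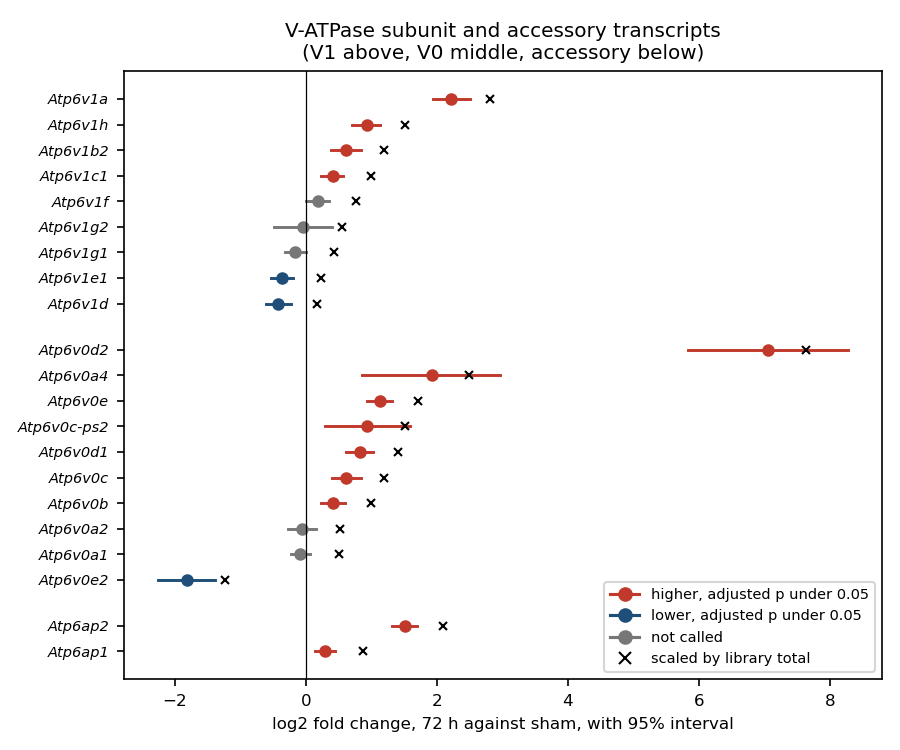
Log2 fold change at 72 h against sham, with 95% intervals from edgeR, of the V-ATPase subunit and accessory genes ordered within V1, V0 and accessory proteins; red (higher) and blue (lower) points have an adjusted p under 0.05, grey ones do not, and crosses give the value with scaling to library totals. Atp6v1a has the largest value in V1, Atp6v1d and Atp6v1e1 lie below 0 with their crosses above it, and Atp6v0d2 and Atp6v0e2 mark the ends of V0.

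In the V0 sector most genes code for alternative forms of a subunit. At 72 h the largest rise (Atp6v0d2) and the only called fall (Atp6v0e2) were among these, and so were the smallest changes (Atp6v0a1 and Atp6v0a2). Of the 10 genes, 8 were called at 72 h (80%, against 66.4% of all genes). Of these, 7 were higher and 1 lower, beside 34.2% and 32.2% of all genes. The median log2 change was 0.72. With scaling to library totals 9 were higher and 1 lower, beside 79.9% of all calls higher under that scaling. Summed over the 10 genes the level was 326 ± 8.62 CPM in sham mice, and 24 h and 72 h after ligation it was 356 ± 3.79 and 436 ± 20.5.

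Subunit d, which couples the stalk to the c ring, has 2 genes. Atp6v0d2, the form of osteoclasts and of fusing macrophages (chr4:19876841-19922605, minus strand), had 3 counts in the 3 sham libraries together, 46 at 24 h and 695 at 72 h. It read 0.0506, 0.104 and 0 CPM in sham, 0.993, 0.318 and 0.722 at 24 h and 6.62, 6.85 and 8.27 at 72 h. The ratio to sham was 13.3 at 24 h (95% interval 4.28 to 67) and 149 at 72 h (50.7 to 723), intervals that cover counting error only (edgeR adjusted p = 7.17e-09 at 72 h). Because of those few counts the fitted log2 change at 72 h, 7.06, went to 7.94 without sham replicate 2 and to 6.45 without sham replicate 3. Atp6v0d1, the widespread form, read 31.7, 28 and 29.6 CPM in sham and 50.2, 50.9 and 57.3 at 72 h (log2 change 0.83, adjusted p = 6.76e-07). Per length, Atp6v0d2 made up 0.116% ± 0.123 of subunit d in sham hearts, 1.18% ± 0.601 in those of 24 h and 8.29% ± 0.364 in those of 72 h. The osteoclast markers, 8 in the table, summed to 23.9 to 26.2 CPM in sham, 46.6 to 152 at 24 h and 94.5 to 118 at 72 h, where 6 of 7 tested were higher and 1 was lower.

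Subunit e also has 2 genes, and they moved apart. Atp6v0e read 42, 41.6 and 39.3 CPM in sham and 94.1, 81.6 and 92.7 at 72 h (log2 change 1.13, edgeR adjusted p = 5.79e-09). Atp6v0e2, a form enriched in brain, read 11.5, 8.40 and 10.1 CPM in sham, 5.91, 6.37 and 5.10 at 24 h and 3.28, 2.31 and 2.86 at 72 h. Its log2 change was -0.78 at 24 h (adjusted p = 0.00397) and -1.82 at 72 h (SE 0.20, adjusted p = 3.34e-07), the largest fall among the 36. It gave 25% ± 2.92 of subunit e per length in sham hearts, 13.9% ± 1.04 in those of 24 h and 4.12% ± 0.412 in those of 72 h, so the libraries of the 3 groups do not overlap.

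Subunit a, which forms the proton path with the c ring and directs the pump to its membrane, showed the same kind of shift once the gene outside the naming rule was counted. Atp6v0a1 read 79.5, 76 and 77.3 CPM in sham and 77.4, 69 and 72.6 at 72 h (log2 change -0.09, 95% interval -0.23 to 0.06), and Atp6v0a2 read 52.8, 53.9 and 58.7 in sham and 50.7, 57.3 and 50.5 at 72 h (-0.06, -0.27 to 0.15). Neither was called at any time against sham with TMM, and both were called higher at 72 h with scaling to library totals (0.50 and 0.52). Atp6v0a4, the form of renal intercalated cells, stayed rare, with 12 counts in sham and 72 at 72 h, a ratio of 3.85 (95% interval 2.07 to 7.79). Tcirg1, the a3 subunit of osteoclasts and phagocytes, read 20.9, 18.9 and 20.4 CPM in sham, 25.3, 32.9 and 44.2 at 24 h and 109, 108 and 149 at 72 h (log2 change 2.60, SE 0.20, edgeR adjusted p = 1.05e-08). With Tcirg1 included, the a3 gene made up 18.3% ± 0.632 of subunit a per length in sham, 26.3% ± 6.12 at 24 h and 58.4% ± 4.85 at 72 h, while Atp6v0a1 went from 48.2% to 24.2%.

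**Figure D4:**
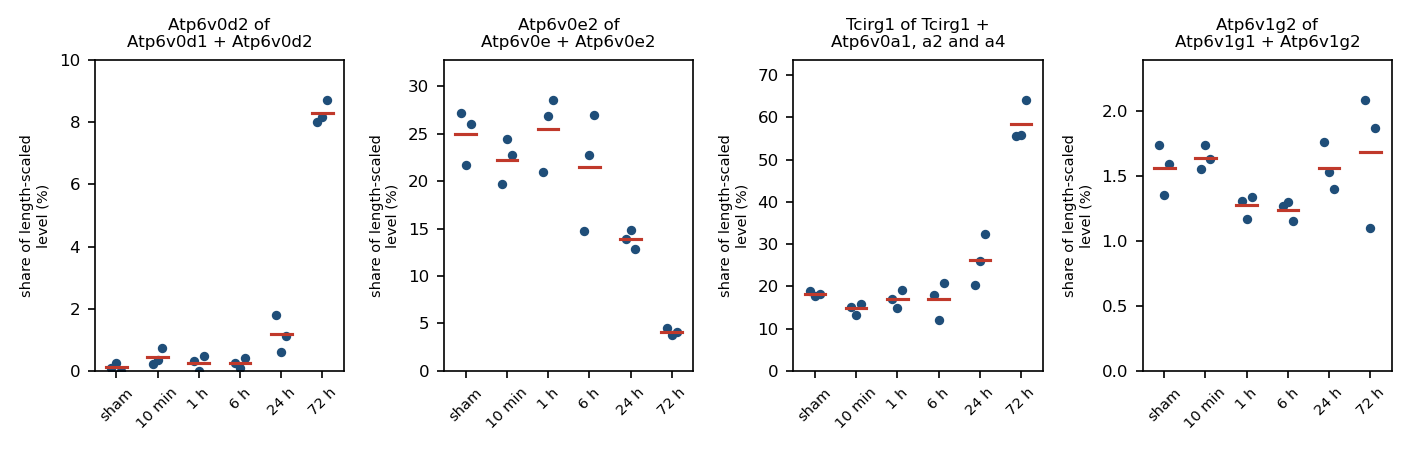
Share of each subunit's expression, per length, in percent, taken by Atp6v0d2 of subunit d, Atp6v0e2 of e, Tcirg1 of a (a2 and a4 in the panel title stand for Atp6v0a2 and Atp6v0a4) and Atp6v1g2 of G, by group; points are libraries and bars are group means, with no test. Atp6v0d2 lies at 8.29% of d, Atp6v0e2 at 4.12% of e and Tcirg1 at 58.4% of a in the mean of the 72 h libraries, and Atp6v1g2 stays under 3% in every library.

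The proton-carrying ring rose modestly. Atp6v0c, the c subunit, read 30.1, 28.9 and 30.4 CPM in sham and 44.8, 45.4 and 47.1 at 72 h (log2 change 0.62, edgeR adjusted p = 4.19e-05), and Atp6v0b, the related c'' subunit, rose by 0.42. The pseudogene Atp6v0c-ps2 was called higher too (log2 change 0.94, adjusted p = 0.0119), but it shares sequence with Atp6v0c, so its reads are uncertain, and the call was lost without sham replicate 1 (adjusted p = 0.0505) or sham replicate 2 (0.0645).

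Both accessory proteins of the pump rose at 72 h, by different amounts. Atp6ap2, also known as the (pro)renin receptor and needed for assembly of the pump, read 19.3, 18.7 and 20.7 CPM in sham, 25.2, 26.1 and 27.4 at 24 h and 53.2, 55.6 and 57.8 at 72 h. Its log2 change was 0.42 at 24 h and 1.51 at 72 h (SE 0.09, edgeR adjusted p = 2.26e-10). Atp6ap1, a glycoprotein of the V0 sector, read 111, 113 and 113 CPM in sham and 137, 144 and 133 at 72 h (log2 change 0.29, adjusted p = 0.00207). Its rise at 24 h, 0.21, was lost in 7 of 27 alternative analyses.

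The LAMPs rose late as well. Lamp1 read 272, 262 and 271 CPM in sham, 260, 236 and 213 at 24 h, where it was not called (log2 change -0.18, edgeR adjusted p = 0.121), and 416, 394 and 476 at 72 h (0.68, adjusted p = 3.89e-06). Lamp2, which is also the membrane receptor of chaperone-mediated autophagy and is mutated in Danon disease of heart muscle, read 147, 151 and 155 CPM in sham, 218, 196 and 173 at 6 h and 269, 281 and 287 at 72 h. Its log2 change was 0.38 at 6 h (adjusted p = 0.0151) and 0.89 at 72 h (adjusted p = 1.02e-06). The 6 h call was lost in 5 of 27 alternatives, among them without 6 h replicate 1 (0.29, adjusted p = 0.0935).

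Other genes of the pathway were read from 7 lists, each described by its counts at 72 h. Of all genes, 66.4% were called at that time, 34.2% higher and 32.2% lower. Where a direction flips, the value with scaling to library totals is given too. Under that scaling the median log2 change of all genes was 0.61 and 79.9% of all calls were higher. Of 35 other lysosomal hydrolases and activators, 30 rose, 2 fell and 3 were not called, with a median log2 change of 1.37. Acp5, the tartrate-resistant acid phosphatase of osteoclasts and activated macrophages, rose by 6.21, and Gla, alpha-galactosidase A, by 3.56. Smpd1, acid sphingomyelinase, fell by 1.11, and Gaa, the acid alpha-glucosidase that degrades glycogen and is deficient in Pompe disease, fell by 0.65 (log2 change -0.06 and not called with scaling to library totals). At 24 h 11 of the 35 had risen and 6 had fallen, beside 23.7% of all genes higher and 20.2% lower. From 24 to 72 h 32 rose and 1 fell, beside 24.4% and 26.1% of all genes, so here too most of the rise was late.

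Of 23 other genes of the lysosomal membrane, 11 rose and 2 fell (median 0.20), and with scaling to library totals 22 rose and 1 fell (median 0.79). Cd68, a LAMP relative of macrophages, rose by 4.78 and Laptm5, of haematopoietic cells, by 3.62, while Laptm4b fell by 0.94. Lamtor3, of the Ragulator complex, was called lower with a log2 change of -0.31, which became 0.28 with scaling to library totals. Of 9 cystatins and other cathepsin inhibitors with enough counts, 5 rose and none fell (median 1.47). Serpinb1a, an inhibitor of neutrophil serine proteases, rose by 4.65 and Cstb, stefin B, which binds cysteine cathepsins in the cytosol, by 2.89. Of 10 genes that sort enzymes to lysosomes, 6 rose and 1 fell (median 0.30), and with scaling to library totals 10 rose and 0 fell (median 0.89), with Lrp1 higher by 1.72 and M6pr, a mannose 6-phosphate receptor, by 1.14. Gga2, an adaptor of the Golgi, had a log2 change of -0.26, which became 0.33 with scaling to library totals.

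Of 16 autophagy genes, 5 rose, 8 fell and 3 were not called (median -0.22). With scaling to library totals 8 were higher and 3 lower (median 0.37), so the balance of this list rests on TMM. Vps18 rose by 0.63 and Atg5 by 0.56, Map1lc3a, which codes for an LC3 protein of the autophagosome membrane, fell by 1.51 and Ulk1, the kinase that starts autophagosome formation, fell by 0.93; these 4 kept their direction under both scalings. Of 12 further V-ATPase assembly and partner genes tested, 2 rose and 3 fell (median -0.06), and with scaling to library totals 7 rose and 0 fell (median 0.52). Beside Tcirg1, Ncoa7, a TLDc protein that binds the pump, rose by 1.58. Its relative Oxr1 had a log2 change of -0.48 and Rogdi of -0.42, which became 0.11 and 0.16, neither called, with scaling to library totals.

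The 4 genes of the TFEB family split in pairs. Tfe3 read 14.9, 14.3 and 15.8 CPM in sham and 33.9, 31.9 and 34.5 at 72 h (log2 change 1.16, edgeR adjusted p = 1.05e-06), and it had risen by 6 h (0.48, adjusted p = 0.0186). Tfec, a form of macrophages, had 3, 7 and 3 counts in sham and 221, 181 and 240 at 72 h (4.95, adjusted p = 4.78e-05). Its 24 h libraries spread widely, at 4.36, 1.38 and 12.7 CPM, with replicate 3 again the highest. Tfeb read 70.3, 66.8 and 68 CPM in sham and 46.4, 40.5 and 37.7 at 72 h (-0.72, adjusted p = 2.17e-05; -0.14 and not called with scaling to library totals), and Mitf 47.6, 47.7 and 49.8 in sham and 27.5, 25.7 and 23.7 at 72 h (-0.91, adjusted p = 1.18e-07). RNA levels say nothing of where these factors were in the cell.

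**Figure D5:**
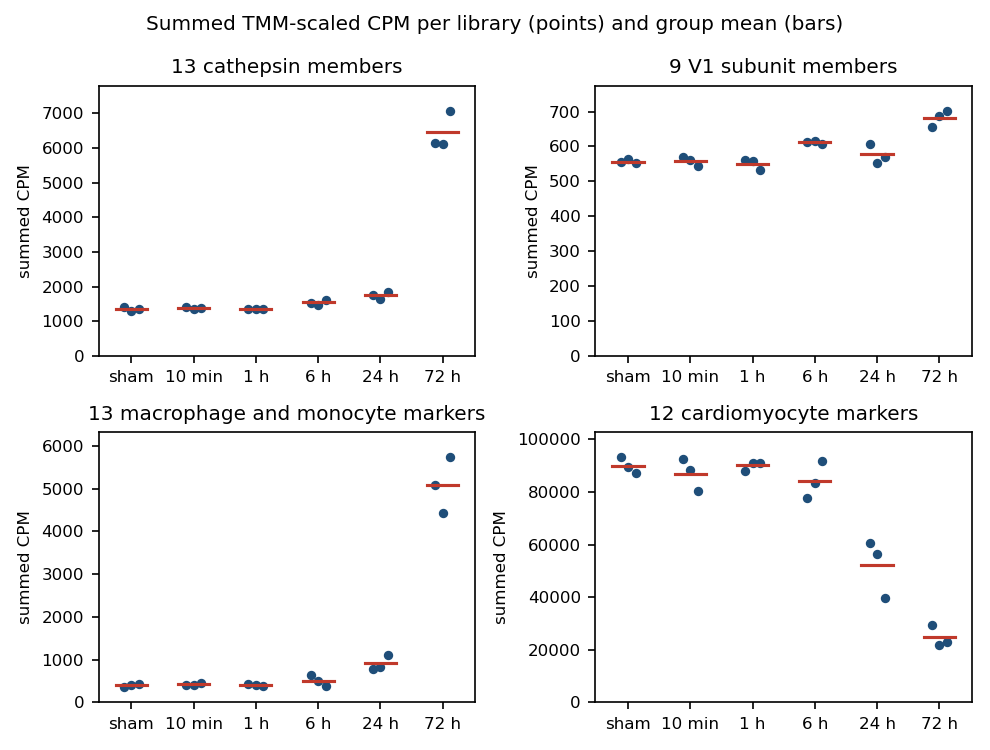
Summed TMM-scaled CPM per library (points) and group mean (bars) of the 13 cathepsins, the 9 V1 genes, 13 macrophage and monocyte markers and 12 cardiomyocyte markers, by group in order of time. Cathepsins (6120 to 7080 CPM at 72 h) and macrophage markers (4430 to 5740) are highest at 72 h, the V1 sum changes far less, and cardiomyocyte markers are lowest at 72 h.

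The neutrophil markers were already at 277 to 953 CPM at 6 h, when the cathepsin sum was 1480 to 1620 CPM against 1310 to 1410 in sham, and at 74.9 to 89.4 CPM at 72 h, when the cathepsin sum was 6120 to 7080. The group mean of the neutrophil markers was highest at 6 h (558 CPM, against 470 at 24 h, where libraries ran from 110 to 999). That of the cathepsin sum was highest at 72 h. Any relation between these sums was not tested. Of 8 endothelial markers, 6 were lower at 72 h (median log2 change -0.60), but with scaling to library totals 2 were higher and 2 lower (median -0.02). Of 7 dendritic cell markers 5 were higher and 2 lower, and of 5 mast cell and basophil markers tested 0 were called by edgeR, 3 with scaling to library totals.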

How the data were processed

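RNA was poly(A)-selected and amplified by PCR without molecular identifiers, per the labels' protocols, so intervals and floors cover counting error only. The authors deposited read counts per Ensembl gene and FPKM values, each for the whole series and per sample; 0 values differed between these sets of count tables. Per the submitters' processing notes, cutadapt 1.18, HISAT2 2.1.0, featureCounts and the build mm10 were used; the annotation and the use of strand are not given in the sources used here. FPKM columns of replicates 2 and 3 at 6 h held each other's counts, which belong to the same group. Gene lengths recovered from the deposited FPKM equalled the GENCODE M21 exon length for 32 of the 36 members.

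The counts as deposited were fitted with edgeR 4.0.16 in R 4.3.3: filterByExpr (14272 of 30583 genes removed), TMM, and a robust quasi-likelihood model with 1 mean per group over all 18 libraries. The 5 times were compared with sham and each time with the one before (4 steps), two-sided, with Benjamini-Hochberg adjustment over 16311 genes. Each library is 1 mouse, per the labels. The biological coefficient of variation was 0.149. Tested on simulated counts for 72 h against sham (15288 genes), the model recovered 80% of 2-fold and 100% of 4-fold increases. It recovered 78% of 2-fold and 96% of 4-fold decreases, and 19 of its 196 calls were unchanged genes. Each fold was given to only 50 genes, with increases and decreases balanced. The simulation therefore does not cover a change as broad as that at 72 h, where 66.4% of genes were called, nor the choice of scaling. Ratios of genes with few counts are exact Poisson comparisons of group sums.

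The members and lists were chosen with earlier results of these data known. Each member is named once. Values per library are given for the 3 largest increases and 3 largest decreases called in each class, for members with another form of the same subunit, for members called in both directions, and, as said beside them, for a few chosen after their values were seen. Of each other list, the 2 largest increases and decreases with a mean of at least 50 counts are named, plus Tcirg1 and the TFEB family. Alternatives were RLE or library-total scaling, no filter or at least 10 counts in every library, a replicate block, leaving out each library, only the 6 libraries compared, DESeq2 1.42.0, and limma 3.58.1 on log2(FPKM + 1) or log2(FPKM + 0.1).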

Additional observations from a re-analysis of the deposited data

Results flagged for a closer look

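Ctso, cathepsin O, moved in opposite directions at different times, and the model also contrasted those times with each other. These contrasts were run because Ctso had been called on both sides of sham, so they add no independent support. Ctso was lower than sham at 6 h (log2 fold change -0.48) and at 24 h (-0.48) and higher at 72 h (0.50). With scaling to library totals the 24 h value was -0.28 and not called. The difference between 72 h and 6 h was 0.98 on the log2 scale (edgeR adjusted p = 2.13e-07) and that between 72 h and 24 h was 0.98 (adjusted p = 5.42e-07). All 3 libraries of 72 h lay above, and all 6 libraries of 6 and 24 h below, the 3 sham libraries.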

How the results depend on the processing

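Of 104 calls of a member in a comparison, 78 were kept in every alternative that tested them (25 to 27 each), 24 were lost in at least 1 and 4 changed direction, 2 of them also among the 24 lost. The 4 did so where libraries were scaled to their totals, by edgeR or in limma on FPKM, whose units carry that scaling: at 72 h against sham Atp6v1e1 became 0.23 (0.22 by limma with either pseudocount) and Atp6v1d 0.17 (0.16 by limma with a pseudocount of 1, 0.17 with 0.1), Atp6v1f from 6 to 24 h became 0.05 in all 3, and Atp6v0a1 from 24 to 72 h became 0.22 (0.21 with a pseudocount of 1, 0.22 with 0.1). The same scaling took the share of all calls that were higher at 72 h from 51.4% to 79.9%. Members called from 6 to 24 h numbered 12, and 20 with library-total scaling (19 higher and 1 lower), 21 by limma with either pseudocount and 4 when only the 6 libraries compared were fitted. Those called from 1 to 6 h numbered 8, and 5 with no filter on low counts; that count was also 5 without 1 h replicate 2, 1 h replicate 3 or 6 h replicate 1, and ran from 5 to 9 with each library left out. Leaving out each library in turn gave 6 to 9 members at 6 h, 14 to 19 at 24 h and 30 to 32 at 72 h against sham, 8 to 13 from 6 to 24 h and 25 to 28 from 24 to 72 h; it gave 0 at 10 min and 1 h. At 24 h the count was 27 with library-total scaling. Replicate numbers did not pair the libraries: over 45 pairs of groups and numbers, same-numbered libraries had a mean correlation of 0.00716 (-0.445 to 0.486). With the replicate number as a block, 8 members were called at 6 h, 18 at 24 h and 31 at 72 h, as without it, and 7 from 1 to 6 h, 12 from 6 to 24 h and 26 from 24 to 72 h. Depth limits Ctse, Ctsw, Atp6v0a4 and Atp6v0d2, whose folds rest on 0 to 13 counts in sham, and for which log2(FPKM + 1) gives far smaller values (0.55 for Ctse and 2.21 for Atp6v0d2 at 72 h).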
